A study of Rattus norvegicus with 4 samples.

Results

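Matrix metalloproteases (MMPs), ADAMs, ADAMTS proteases and the tissue inhibitors of metalloproteases (TIMPs) were followed in rat oligodendrocyte precursor cells (OPCs), whose progeny myelinate axons in the brain. The members were all array probes whose gene symbol was Mmp, Adam or Timp followed by a number, or began with Adamts. The scanner files carry accessions rather than gene names, so the symbol came from a RefSeq table. This gave 65 probes for 57 genes, of 45598 probes in all. The brightest probe stood for its gene, and 38 of the 57 genes were well above background on at least 2 of the 4 arrays and were tested, among 23155 features tested in the whole series.

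The cells came from rat cortex at postnatal day 2 and were grown for 3 days with bFGF and PDGF. For 2 samples, miR-125a-3p (an RNA copy of that microRNA, the mimic) was transfected with a lipid reagent at 50 nM, and for 2 others a negative control RNA, called miR-neg, and RNA was taken 48 h after transfection. The labels give no strain, genotype or animal pooling, also call the cells oligodendrocytes at 2 days in vitro, and describe no step that restricts transfection to one cell type. They describe the samples as independent but name no animal or culture, and the p-values therefore cover only the spread between these samples, which may be technical. The series asks how gene expression in OPCs differs after overexpression of this microRNA.

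MMPs are secreted or membrane-bound zinc proteases that cut matrix proteins. ADAMs are membrane-bound and release the outer part of other membrane proteins, such as growth factors, adhesion molecules and Notch, while several ADAMs lack a working protease and act in adhesion. ADAMTS proteases are secreted, and one branch of them cuts lecticans, the chondroitin sulphate proteoglycans (aggrecan, brevican, neurocan, versican) that fill the brain's extracellular matrix. TIMPs bind and block the active sites. Adamts4 is known in brain as a gene of the oligodendrocyte lineage, and Timp1 as a secreted inhibitor that glial cells make when stimulated.

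The mature strand that the mimic copies is shown first because it is what separated the groups, with its partner strand from the other arm of the same hairpin, which the labels do not name as transfected. Capitals mark the seed (bases 2 to 8), the stretch that pairs with target RNAs. Both are RefSeq sequences of the GRCr8 build, at chr1:67350727-67350748 and chr1:67350689-67350712 on the plus strand. The seeds of the strands differ.
rno-miR-125a-3p: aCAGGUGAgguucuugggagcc
rno-miR-125a-5p: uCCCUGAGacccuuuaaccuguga

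After the mimic, 1 family gene fell and 1 rose. Adamts4 fell 2.81-fold and Timp1 rose 1.85-fold, and the other 36 genes did not pass the test. In limma, a linear model with variances shared across features, 2 of 38 genes (5.26%) had an adjusted p under 0.05, where 0.687% of all 23155 features did. The median log2 difference of the 38 genes was 0.04, beside 0.01 for all features. Of the 38, 20 lay above 0 and 18 below. The groups did not overlap for 19 genes (50.0%, near the 52.9% of all features). Of these, 10 were higher and 9 lower, where 28.7% of all features were apart in the higher and 24.1% in the lower direction. An unadjusted p under 0.05 was reached by 11 genes (28.9%, against 19.5% of all features). These counts describe genes that passed the filter on dim probes, not the whole family.

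**Figure D1:**
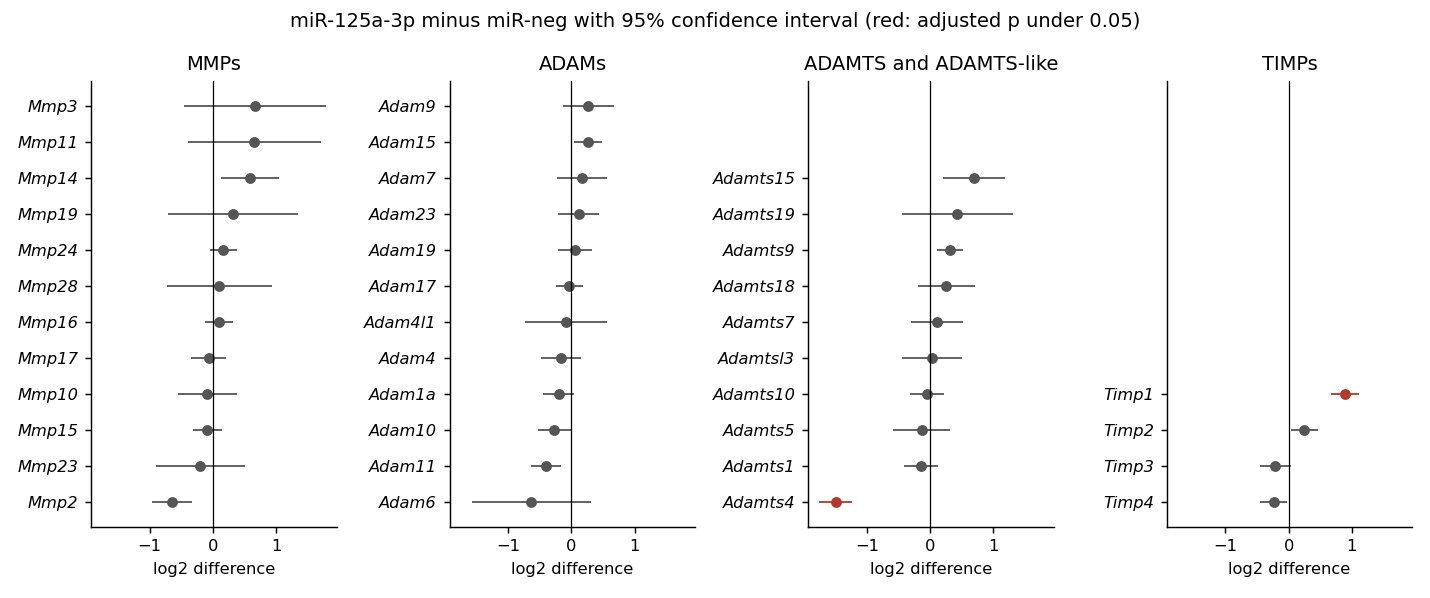
Log2 difference (miR-125a-3p minus miR-neg, horizontal axis) of each of the 38 tested genes with its 95% confidence interval from limma, by class. Adamts4 and Timp1, in red, passed the adjusted threshold, and 26 of the 38 genes lay within 0.3 of 0.

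Adamts4, a secreted protease that cuts aggrecan and brevican, showed the largest difference among the tested genes of the family. Its processed signals were 4604 and 4424 in miR-neg, and 1671 and 1532 after the mimic. All values below are log2 signal minus the array's 75th percentile, and on that scale Adamts4 stood at 2.63 and 2.70 in miR-neg and at 1.25 and 1.10 after the mimic. Both mimic arrays lay more than 1 log2 unit below both control arrays. The difference was -1.49 (SE 0.10, 95% interval -1.75 to -1.23, n = 2 per group, limma adjusted p = 0.0373). It rests on 1 probe. The call was lost when any single one of the 4 arrays was left out, of either group, with limma differences of -1.57 to -1.41 and adjusted p-values of 0.172 to 0.218. It was also lost without the filter on dim probes (adjusted p = 0.23) and with the replicate number as a block (adjusted p = 0.0775).

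Markers of maturing oligodendrocytes were read beside Adamts4. Of 8 listed, 7 were tested, and all 7 lay below 0 (median -0.64), beside 10994 of all 23155 features. In limma 1 passed, Aspa, which fell by 1.55 on the log2 scale, where 0.307% of all features were called lower. The 7 tested markers summed to 718 and 743 in miR-neg and 489 and 466 after the mimic, in multiples of the array's 75th percentile. The 7 OPC markers summed to 354 and 376 in miR-neg and 357 and 376 after the mimic, with a median difference of 0.03. Such sums follow the brightest probes, which were Mbp in the oligodendrocyte list and Olig1, Sox10 and Olig2 in the OPC list. A steady OPC sum therefore does not show a steady number of precursors. Of the OPC markers, 4 lay above 0 and 3 below, and 0 passed in limma. Pdgfra alone had an unadjusted p under 0.05, with a difference of -0.37 (interval -0.59 to -0.16, limma adjusted p = 0.125). In Pdgfra and Sox10 (-0.08) the groups were apart in the lower direction, and in Ptprz1 (0.08) in the higher. In these bulk samples fewer cells of a type and less RNA per cell cannot be told apart, and the part of the marker shift in the Adamts4 result was not tested.

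Timp1, a secreted inhibitor of most MMPs, showed the largest increase among the 38 genes. Its processed signals were 465 and 452 in miR-neg and 837 and 855 after the mimic. The scaled values were -0.68 and -0.59 in miR-neg and 0.25 and 0.25 after the mimic. The mimic arrays agreed closely and both lay above both controls. The difference was 0.89 (SE 0.08, 95% interval 0.66 to 1.11, limma adjusted p = 0.0494), close to the threshold. Quantile normalization (adjusted p = 0.0558), median centring (0.0516) and the mean of a gene's probes (0.052) each ended the limma call, as did no filter (0.258), the replicate block (0.11) and leaving out any single one of the 4 arrays (0.177 to 0.276). The difference itself stayed between 0.79 and 0.93 over the 13 alternatives. Timp1 rests on 1 probe, printed in 10 spots, so averaging a gene's probes left its values unchanged. That alternative acted on Timp1 only through the variances and the adjustment shared with other features.

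The other inhibitors showed small differences in opposite directions. Timp2, which besides inhibiting also takes part in the cell-surface activation of the Mmp2 product, stood at 5.18 and 5.23 in miR-neg and at 5.43 and 5.48 after the mimic, a difference of 0.25 (95% interval 0.04 to 0.46, limma adjusted p = 0.21). Timp3, which binds to the matrix and also blocks several ADAM and ADAMTS proteases, stood at -1.59 and -1.61 in miR-neg and at -1.88 and -1.74 after the mimic (difference -0.21, interval -0.45 to 0.03). Timp4, the inhibitor with the narrowest tissue range, stood at 1.00 and 1.00 in miR-neg and at 0.73 and 0.80 after the mimic (difference -0.24, interval -0.45 to -0.02). The groups of all 4 TIMPs were apart, Timp1 and Timp2 higher and Timp3 and Timp4 lower, but Timp1 alone passed. Among all features 52.9% had groups apart, 28.7% higher and 24.1% lower. Timp2 passed with a variance trend (limma adjusted p = 0.0448).

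**Figure D2:**
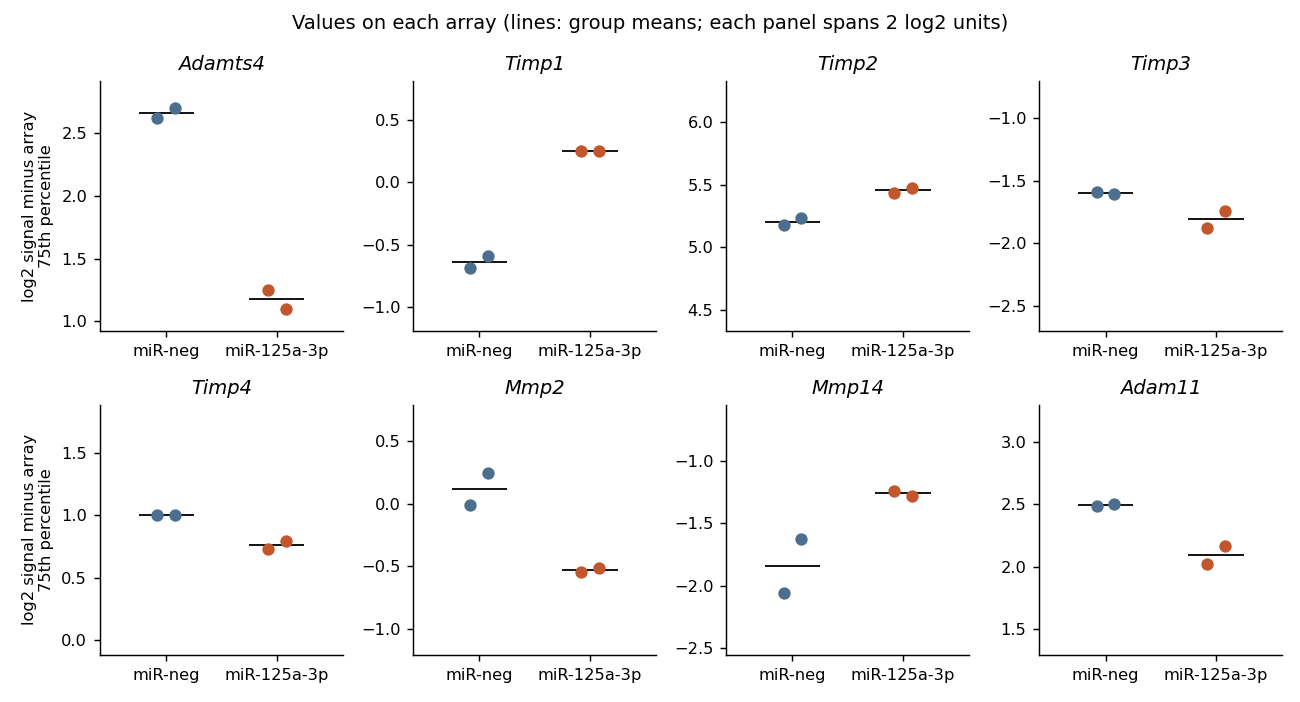
Value on each array (log2 signal minus the array's 75th percentile, vertical axis) for 8 family genes, with miR-neg in blue, miR-125a-3p in orange and a line at each group mean. Each panel spans the same range, so distances compare between panels. Adamts4 falls from 2.63 and 2.70 to 1.25 and 1.10, and Timp1 goes from -0.68 and -0.59 to 0.25 and 0.25.

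Markers of other cell types that the dish could hold were read beside Timp1. All 8 astrocyte markers lay above 0 (median 0.69), with summed levels of 26.8 and 28.8 in miR-neg and 35.5 and 35.0 after the mimic. In limma 1 passed, Aldh1l1, which rose by 1.89 on the log2 scale, and 7 did not. Slc1a2 (0.05) and S100b (0.04) lay near 0. Of 8 tested microglia markers, 6 lay above 0 (median 1.31), with Itgam near 0 (0.09). C1qa alone of them passed in limma, with a rise of 1.44, and 7 did not. The summed levels of the 8 were 2.97 and 3.49 in miR-neg and 3.4 and 3.86 after the mimic. Cd68 (-0.28) and Cx3cr1 (-0.06) lay below 0, and Cx3cr1 was the brightest of these markers. C1qc was kept through the mimic group alone, with 0 of 2 miR-neg and 2 of 2 mimic arrays well above background. All 6 tested vascular and fibroblast markers lay above 0 (median 1.06). Tagln, which rose by 1.21, alone passed in limma, and 5 did not. The sums of the 6 markers were 0.51 and 0.52 in miR-neg and 0.93 and 1.09 after the mimic. Of these, Pdgfrb was likewise kept through the mimic group alone (0 of 2 miR-neg and 2 of 2 mimic arrays). Col3a1 was well above background on 1 of 2 miR-neg arrays and on both mimic arrays. For C1qc and Pdgfrb the filter thus favoured a rise. Csf1r and Ptprc of the microglia list and Pecam1, Cldn5, Rgs5, Dcn and Lum of the vascular and fibroblast list were not well above background on 2 arrays. Of 7 neuron markers, 6 lay above 0 (median 0.26) and 0 passed in limma, with 3 at an unadjusted p under 0.05. Among all 23155 features, 12161 lay above 0, 0.38% were called higher and 19.5% had an unadjusted p under 0.05 in limma. The part of these marker shifts in the Timp1 result was not tested.

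The sequences upstream of the start sites of Adamts4 and Timp1 are shown because these are the genes that passed, in opposite directions. They are the 250 bases before each RefSeq start (GRCr8), at chr13:86202761-86203010 on the plus strand for Adamts4 and chrX:3771123-3771372 on the minus strand for Timp1. Capitals mark matches to any of the motifs searched on both strands. These were the AP-1-like letters TGANTCA (N for any base), the TATA box TATAAA and the GC box GGGCGG.
Adamts4: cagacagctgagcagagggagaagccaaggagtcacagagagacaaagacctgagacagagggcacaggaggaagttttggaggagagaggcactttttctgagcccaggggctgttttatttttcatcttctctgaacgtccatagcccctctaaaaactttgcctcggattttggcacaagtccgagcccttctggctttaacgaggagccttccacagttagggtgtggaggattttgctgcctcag
Timp1: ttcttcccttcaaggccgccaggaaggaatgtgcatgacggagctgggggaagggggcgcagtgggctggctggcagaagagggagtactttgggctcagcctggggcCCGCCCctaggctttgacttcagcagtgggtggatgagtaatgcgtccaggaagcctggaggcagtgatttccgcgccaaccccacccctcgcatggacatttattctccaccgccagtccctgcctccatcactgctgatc

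The Timp1 window held 1 GC box, 142 to 137 bases before the start, and the Adamts4 window held no match to these letters. Of the 38 tested family genes, 25 had an upstream sequence in the table. A GC box lay in 16 of the 25 (64.0%), beside 56.3% of 9592 upstream sequences of tested genes and 32.4% of all 27457. The AP-1-like letters TGANTCA lay in 3 of the 25, Adam19, Mmp3 and Mmp10 (12.0%, beside 4.6% and 6.36%). TATA box letters lay in 6 of the 25 (24.0%, beside 7.3% and 13.1%). These matches describe the letters of the windows. Variants of the motifs were not searched, so a window without a match, such as that of Timp1 for AP-1, may still hold one. None of the genes with the TGANTCA letters passed the expression test.

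The other lectican-cleaving proteases did not pass the test. Adamts9, which cuts versican, stood at -1.50 and -1.48 in miR-neg and at -1.20 and -1.15 after the mimic, a difference of 0.31 (95% interval 0.10 to 0.52, limma adjusted p = 0.155). Adamts15, another versican-cleaving member, was dim and stood at -4.98 and -4.86 in miR-neg and at -4.46 and -4.01 after the mimic (difference 0.69, interval 0.20 to 1.18, adjusted p = 0.17 in limma). With normexp background correction the Adamts15 difference was 0.12 (limma adjusted p = 0.492). Both of these had groups that were apart in the upward direction. Adamts1 was at -0.15 (interval -0.42 to 0.12) and Adamts5, an aggrecanase of cartilage, at -0.13 (interval -0.58 to 0.31), and these are differences. Of the 5 tested genes of this branch, 1 fell and 4 did not pass. The intervals of these 4 genes do not reach the interval of Adamts4 (-1.75 to -1.23).

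The remaining ADAMTS genes held 0 calls in limma, with 0 at an unadjusted p under 0.05. Adamts7, which cuts cartilage oligomeric matrix protein, stood at -1.12 and -1.44 in miR-neg and at -1.26 and -1.08 after the mimic. Adamts10, which acts with fibrillin fibres, stood at -0.71 and -0.69 in miR-neg and at -0.84 and -0.65 after the mimic. In both genes the groups overlapped. Adamts18 stood at -4.11 and -4.40 in miR-neg and at -4.15 and -3.85 after the mimic. Adamts19 was well above background on 3 arrays, at -4.90 and -5.70 in miR-neg and at -4.67 and -5.07 after the mimic. The ADAMTS-like gene Adamtsl3, whose product lacks the protease domain, stood at -4.11 and -3.86 in miR-neg and at -3.77 and -4.14 after the mimic, so its groups overlapped too. Its second kept probe was at -0.29 where the tested one was at 0.03, and the mean of its probes turned the sign (-0.13).

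Among the MMPs, 0 of 12 tested genes passed in limma. An unadjusted p under 0.05 was reached by 2 (16.7%, beside 19.5% of all features), Mmp2 and Mmp14. Mmp2, a gelatinase that cuts collagen IV and denatured collagens, stood at -0.01 and 0.24 in miR-neg and at -0.55 and -0.52 after the mimic. Both mimic arrays were lower than both controls. The difference was -0.65 (SE 0.12, 95% interval -0.97 to -0.33, limma adjusted p = 0.104), and its second probe changed by -0.88. Mmp2 passed with normexp background correction (-0.59, adjusted p = 0.00763) and with a variance trend (adjusted p = 0.00526) in limma.

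Mmp14 encodes the membrane-bound protease that activates the Mmp2 product at the cell surface. It stood at -2.06 and -1.63 in miR-neg and at -1.24 and -1.28 after the mimic. The control arrays differed from each other by more than the mimic arrays did, and both mimic arrays were higher. The difference was 0.58 (SE 0.17, interval 0.12 to 1.04, limma adjusted p = 0.194), and its second probe, also printed in 10 spots, was at 0.59. Mmp14 passed with normexp (0.45, adjusted p = 0.0346) and with a variance trend (adjusted p = 0.0376). Without miR-neg replicate 1 the Mmp14 difference was 0.37 and without miR-neg replicate 2 it was 0.80. Mmp2 and Mmp14 thus lay on opposite sides of 0 at both of their probes.

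The other membrane-type MMPs differed little between the groups. Mmp16 stood at 3.26 and 3.34 in miR-neg and at 3.38 and 3.41 after the mimic (difference 0.09, interval -0.12 to 0.31). Mmp24, a mainly neural member that sheds N-cadherin, stood at 2.58 and 2.64 in miR-neg and at 2.78 and 2.78 after the mimic (difference 0.17, interval -0.04 to 0.38). Mmp15 stood at 6.16 and 6.26 in miR-neg and at 6.14 and 6.10 after the mimic (difference -0.09, interval -0.32 to 0.14). In Mmp16, Mmp24 and Mmp15 the groups were apart by small distances. Mmp17, anchored by a lipid tail, had a difference of -0.07 (interval -0.35 to 0.21). These 4 intervals reach up to 0.38 (Mmp24) and down to -0.35 (Mmp17) on the log2 scale.

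The stromelysins, of which the Mmp3 and Mmp10 products cut proteoglycans and fibronectin and activate other MMPs, were dim. Mmp10 stood at -4.28 and -4.49 in miR-neg and at -4.28 and -4.67 after the mimic, with overlapping groups. Mmp11, well above background on 3 arrays, stood at -5.85 and -4.80 in miR-neg and at -4.55 and -4.79 after the mimic (difference 0.65, interval -0.40 to 1.71). Without miR-neg replicate 1 the Mmp11 difference was 0.13, without miR-neg replicate 2 it was 1.18, and with normexp it was 0.10. Mmp3 was kept through the mimic group alone, with 0 of 2 miR-neg arrays and 2 of 2 mimic arrays well above background, so the filter favoured a difference. Its signals were 9.72 and 5.76 in miR-neg and 8.33 and 16.7 after the mimic, which overlap. The measured means were -6.57 in miR-neg and -5.91 after the mimic (difference 0.66, interval -0.46 to 1.78, limma adjusted p = 0.449). Without miR-125a-3p replicate 2 the Mmp3 difference was 0.17, and with normexp it was 0.10. A second Mmp3 probe was not above background on any array.

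Among MMPs of other branches, Mmp19 stood at -4.46 and -5.47 in miR-neg and at -4.49 and -4.81 after the mimic. Mmp23, a membrane-anchored member, stood at -3.51 and -4.13 in miR-neg and at -3.85 and -4.18 after the mimic. Mmp28, epilysin, stood at -2.24 and -2.68 in miR-neg and at -1.99 and -2.71 after the mimic. In all 3 genes the groups overlapped, and the difference within a group reached or exceeded the difference between groups.

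Among the ADAMs, 0 of 12 tested genes passed in limma. An unadjusted p under 0.05 was reached by 3 (25%, beside 19.5% of all features), Adam10, Adam11 and Adam15. Adam11, a neural member without a working protease, stood at 2.49 and 2.51 in miR-neg and at 2.02 and 2.16 after the mimic. Its groups were apart, and the difference was -0.40 (SE 0.09, interval -0.65 to -0.16, limma adjusted p = 0.136). A second kept probe, annotated to another Adam11 accession, changed by -0.85, and the mean of its probes gave -0.63. Adam11 passed with normexp (-0.40, adjusted p = 0.0222) and with a variance trend (adjusted p = 0.0114) in limma.

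The sheddases showed small differences. Adam10, the main protease that cuts Notch after ligand binding and N-cadherin, stood at -0.09 and 0.05 in miR-neg and at -0.33 and -0.24 after the mimic, a difference of -0.27 (interval -0.53 to -0.01, adjusted p = 0.243 in limma). Adam17, which releases tumour necrosis factor and ligands of the epidermal growth factor family, stood at -0.37 and -0.37 in miR-neg and at -0.44 and -0.36 after the mimic. Its difference was -0.03 with an interval of -0.25 to 0.18, so a change of more than 0.25 on the log2 scale lay outside it. Adam15 stood at 1.23 and 1.32 in miR-neg and at 1.54 and 1.54 after the mimic (difference 0.27, interval 0.04 to 0.49, adjusted p = 0.207 in limma), and its second probe was at 0.24. Adam9 was at 0.27 (interval -0.13 to 0.67) and Adam19, which can release neuregulins, at 0.06 (interval -0.21 to 0.33), as differences.

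The other ADAMs tested were Adam23, a neuronal adhesion member that binds Lgi1, Adam1a, Adam4, Adam6 and Adam7, which are known from the male reproductive tract, and Adam4l1. Their differences ran from -0.64 (Adam6) to 0.17 (Adam7), with adjusted p-values of 0.314 to 0.871 in limma. Adam6 was well above background on 3 arrays and its mimic arrays, at -6.01 and -5.19, spanned the control value of -5.22. Adam7, known from the epididymis, was well above background on all 4 arrays, and its groups overlapped. Each of these 6 genes had 1 probe, so the probes could not be checked against a second one.

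The 19 genes that were not tested comprised 13 with no array well above background and 6 with 1 array. Those with 1 array were Adam30, Adam32, Mmp1, Mmp7, Mmp9 and Mmp12, and those with none were Adam2, Adam3a, Adam5, Adam26a, Adam34, Adamts12, Adamtsl4, Adamtsl5, Mmp8, Mmp13, Mmp20, Mmp21 and Mmp27. The lowest signal well above background ran from 7.63 to 12.0 over the arrays, but single probes above that level could still miss the scanner's own criterion. Mmp9, the second gelatinase, had signals of 4.10 and 16.5 in miR-neg, where 1 array was well above background, and 3.00 and 3.46 after the mimic. Mmp7, matrilysin, had signals of 27.1 and 14.1 in miR-neg, where 1 array was well above background, and 4.36 and 3.87 after the mimic. Mmp13, a collagenase, had 7.54 and 5.81 in miR-neg and 13.5 and 15.8 after the mimic, none of them well above background. In each of these 3 genes at least 1 group was not well above background on any array, and no test was made. Just inside the limit of 2 arrays lay Mmp3, and 4 further genes, Adam6, Adamts19, Mmp11 and Mmp19, were kept on 3 arrays.

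**Figure D3:**
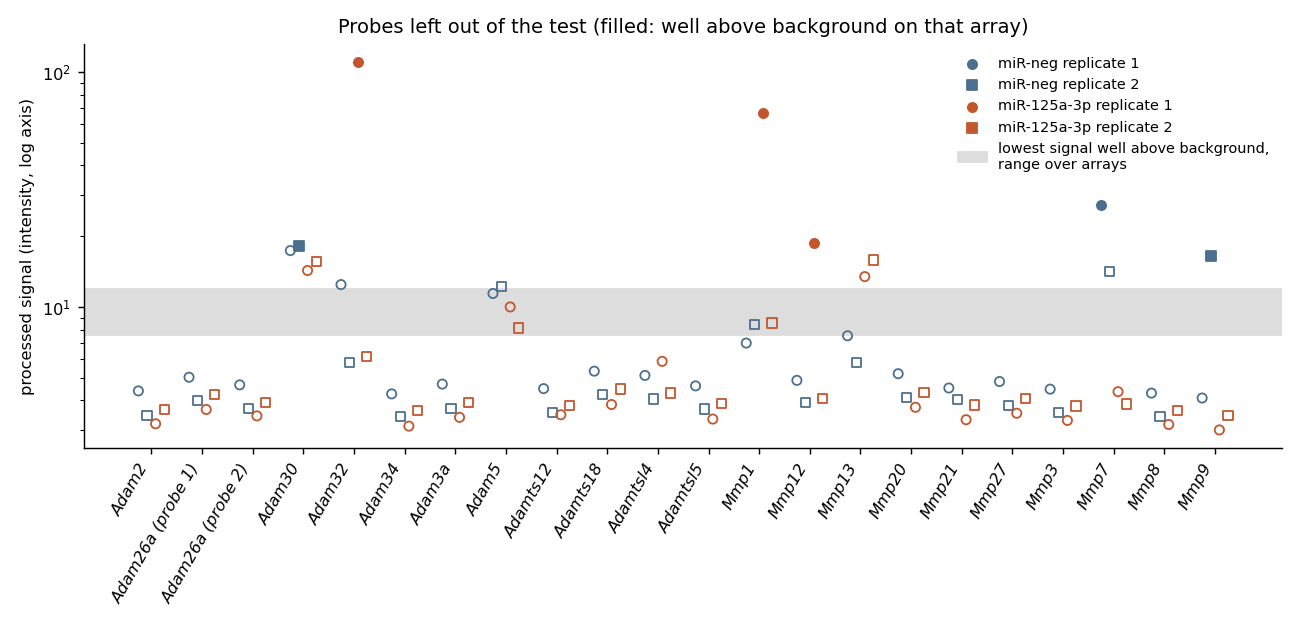
Processed signal (log axis) on each array of the 22 family probes left out of the test, with filled symbols where the probe was well above background on that array and a grey band for the lowest such signal on the arrays (7.63 to 12.0). Most probes lie below the band on all arrays, and Adam32 and Mmp1 stand out on miR-125a-3p replicate 1 alone.

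Genes that regulate these proteases were read from a list of 30, of which 24 were tested. In limma 2 rose, 0 fell and 22 did not pass, with a median difference of 0.01, beside the same 0.01 for all features, and 10 of the 24 at an unadjusted p under 0.05, beside 19.5% of all features. Among all features 0.38% were called higher and 0.307% lower. Lcn2, which binds the Mmp9 product and slows its breakdown, stood at -3.20 and -2.95 in miR-neg and at -1.0 and -0.84 after the mimic (difference 2.15, SE 0.13). Sdc4, a cell-surface proteoglycan that binds ADAMTS proteases, stood at -3.32 and -3.12 in miR-neg and at -1.75 and -1.69 after the mimic (difference 1.5, SE 0.11). In limma both had an adjusted p of 0.0373, and both calls were lost when any single one of the 4 arrays was left out (adjusted p of 0.17 to 0.222), without the filter on dim probes (0.23 for both) and with the replicate block (0.0641 and 0.072). Sdc4 was also lost with quantile normalization (limma adjusted p = 0.0509), and its difference was 0.94 with normexp.

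Other regulators did not pass. Rhbdf1, an inactive rhomboid needed to bring the Adam17 product to the surface, stood at 2.29 and 2.33 in miR-neg and at 1.27 and 1.49 after the mimic (difference -0.93, SE 0.11, limma adjusted p = 0.0615). Sparc, a matricellular protein known to raise MMP levels, stood at 1.22 and 1.39 in miR-neg and at 2.26 and 2.27 after the mimic (difference 0.96, SE 0.10, adjusted p = 0.0534 in limma). In both genes the groups were clearly apart. Both passed with normexp, with a variance trend and with only probes detected on every array. The tetraspanins that carry the Adam10 product did not move one way, with Tspan33 at 0.48, Tspan14 at -0.52, Tspan17 at -0.24, Tspan5 at -0.05 and Tspan15 at 0.04. The proprotein convertase Furin, which activates many ADAMs and membrane-type MMPs, was at -0.19 (interval -0.43 to 0.05) and Pcsk6 at -0.36 (interval -0.61 to -0.11). Plau, Rhbdf2, Tspan10 and Thbs1 were among those below the filter.

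Known substrates were read from a list of 35, of which 32 were tested. In limma 0 passed, 14 of the 32 had an unadjusted p under 0.05, beside 19.5% of all features, 17 lay above 0 and 15 below, and the median was 0.05. The smallest p-values belonged to fibronectin, Fn1, at 1.17 (limma adjusted p = 0.0573), Col3a1 at 1.32 (0.0725), Nrg1 at 0.94 (0.0868) and Erbb4 at -0.52 (0.0873). Fn1 stood at -3.41 and -3.12 in miR-neg and at -2.09 and -2.09 after the mimic. Fn1, Col3a1 and Erbb4 passed with normexp, where Fn1 was at 0.71, Col3a1 at 0.35 and Nrg1, which did not pass, at 0.28, and all 4 genes passed with a variance trend.

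The lecticans, the substrates of the Adamts4 branch, showed small differences. Brevican, Bcan, stood at 8.16 and 8.30 in miR-neg and at 7.95 and 7.96 after the mimic (difference -0.28, interval -0.52 to -0.04). Versican, Vcan, stood at 5.10 and 5.16 in miR-neg and at 4.85 and 4.83 after the mimic (difference -0.29, interval -0.51 to -0.08). Neurocan, Ncan, was at 0.20 (interval -0.02 to 0.41) and aggrecan, Acan, at 0.04 (interval -0.38 to 0.45). For Bcan and Vcan both mimic arrays lay below both controls, as Adamts4 did, but neither passed. The Notch ligand gene Jag1 was at -0.46 and the N-cadherin gene Cdh2 at -0.45, and neither passed.

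**Figure D4:**
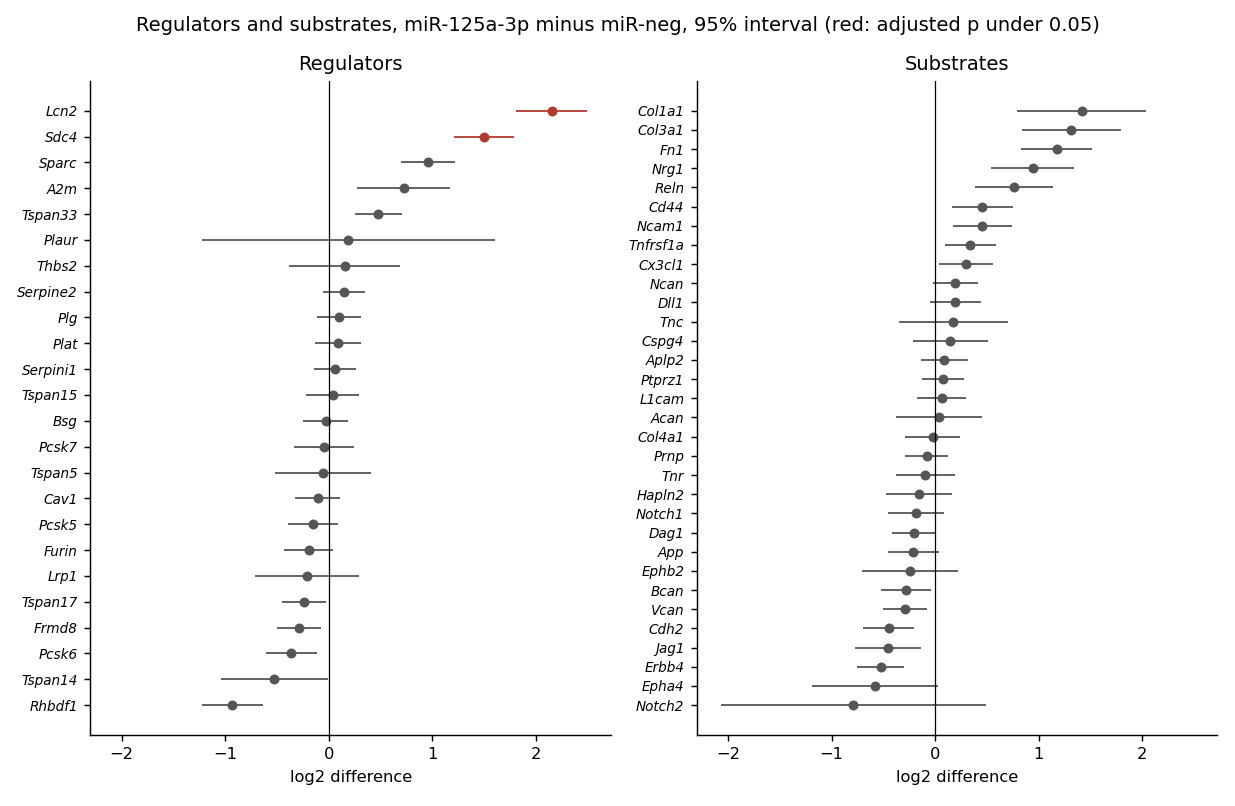
Log2 difference (miR-125a-3p minus miR-neg, horizontal axis) with 95% confidence interval for the 24 tested regulators and the 32 tested substrates. Lcn2 and Sdc4, in red, passed the adjusted threshold, and 0 substrates did.

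Across the series the processed signal had a 75th percentile of 679 to 745, 26332 to 28138 probes were well above background, and 0 spots were saturated. The arrays shared 1 slide and 1 scan. Along 1 axis of that slide the position followed the treatment, and these cannot be told apart. All 7 OPC markers were well above background on all 4 arrays, and so were all 8 astrocyte, all 7 neuron and all 7 tested oligodendrocyte markers, so detection does not set the OPC label apart from these cell types. In limma 159 of 23155 features passed, and this count ranged from 0 to 2048 over the alternatives tried.

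**Figure D5:**
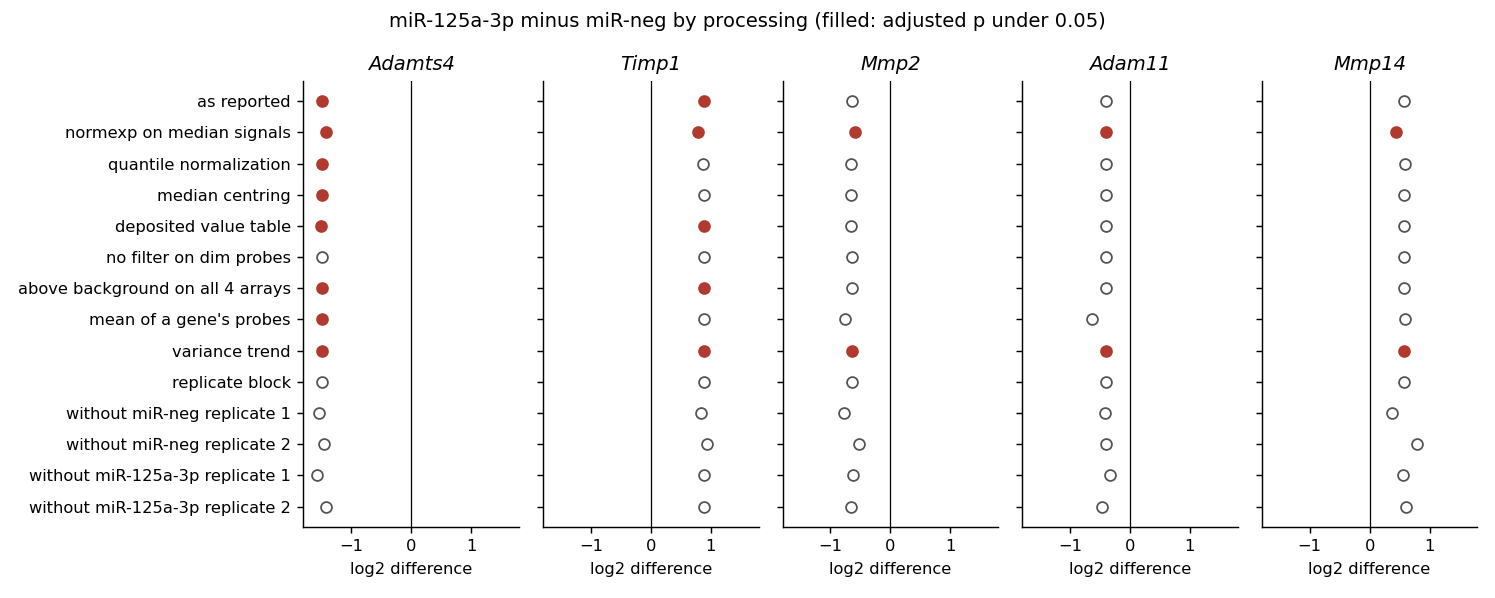
Log2 difference (miR-125a-3p minus miR-neg, horizontal axis) of 5 family genes as reported and under each alternative, with filled points where the adjusted p was under 0.05. All 5 genes keep their side of 0 under every alternative, and Adamts4 passed in 7 and Timp1 in 4 of the 13 alternatives.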

How the data were processed

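The deposited intensities are processed scanner signals. Agilent Feature Extraction 10.7.3.1 had subtracted background and corrected spatial trends, per the file headers; the submitters' processing notes name the same tool. The authors' value table holds log2 values that equalled, within 0.01, the log2 processed signal minus 1 constant per array, and it was used as an alternative. RNA (100 ng) was labelled with Cy3, per the labels' protocols. From the signals, control spots and outlier-flagged spots were left out, repeat spots were averaged as log2 values, and the 75th percentile of the array was subtracted from each. Probes well above background (in at least 50% of spots, a share of 0.5) on at least 2 arrays were kept, 27250 of 45598. Accessions were paired with symbols through the RefSeq table of GRCr8, which named 21109 probes. Other probes kept their identifiers, and other family members may be among them. The test was limma 3.58.1 (R 4.3.3, lmFit, eBayes, two-sided, Benjamini-Hochberg over 23155 features, threshold 0.05). The script was tested on simulated data. An exact permutation test of 2 against 2 cannot give a p below 0.333. Every family gene could be named. The 3 with the smallest p in a role group, each TIMP and each call are given per array, and from the pathway lists the calls and the 4 smallest p-values. Lectican genes, tetraspanins, convertases, Jag1 and Cdh2 were named after their values were seen, as were Adam9, Adam17 and Adam19 in their group. The members and lists were chosen with earlier results of these data known. A planned split of ADAMs by protein motif was not made, since no protein table was used here. Alternatives are given in the closing section. With 4 arrays, their number limits the precision.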

Additional observations from a re-analysis of the deposited data

Results flagged for a closer look

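Of the family genes left out of the test, 3 were well above background on 1 miR-125a-3p array and on 0 miR-neg arrays. Adam32 had a signal of 109.7 on miR-125a-3p replicate 1, against 6.18 on replicate 2 and 12.4 and 5.79 in miR-neg. Mmp1, a collagenase, had 66.9 on miR-125a-3p replicate 1, against 8.54 on replicate 2 and 7.02 and 8.40 in miR-neg. Mmp12, the macrophage elastase, had 18.7 on miR-125a-3p replicate 1, against 4.07 on replicate 2 and 4.87 and 3.92 in miR-neg. In all 3 genes the high array was miR-125a-3p replicate 1, and the other mimic array was near the controls. That array also had the most probes well above background, 28138, where the other arrays had 26332 to 26902. The reverse held for Adam30, Mmp7 and Mmp9, each well above background on 1 miR-neg array and on 0 miR-125a-3p arrays.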

How the results depend on the processing

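The counts of features, family genes and pathway genes past the threshold in limma, 159, 2 and 2 as reported, were 1601, 5 and 18 with normexp on median signals (chosen after seeing the data), 83, 1 and 1 with quantile normalization, 2048, 6 and 21 with a variance trend, and 0, 0 and 0 without a filter on dim probes (unadjusted p under 0.05 for 3956, 9 and 21). With only probes detected on every array, 613 features and 7 pathway genes passed. The family count was 1 with median centring and 1 with the mean of a gene's probes. A replicate block (equal here to blocking on slide position along the axis not tied to treatment) gave counts that were 0, 0 and 0 (unadjusted p under 0.05 for 3968, 8 and 24), and they ranged from 0 to 0 with 1 array left out (unadjusted p under 0.05 for 2748 to 4116, 5 to 10 and 13 to 22). Where 1 array remained in a group, its spread was taken from the other group. Same-numbered arrays had deviations correlated at 0.0505, and the labels tie them by number alone, though they also share that slide position. Normexp on mean signals was not run.

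Mmp19 changed sign with normexp (-0.043) and Adamtsl3 with the mean of its probes (-0.13). With 1 array left out, the differences that changed sign ranged from -0.074 to 0.0068 (Adam17), -0.0076 to 0.13 (Adam19), -0.016 to 0.24 (Adam23), -0.40 to 0.23 (Adam4l1), -0.14 to 0.048 (Adamts10), -0.32 to 0.052 (Adamts5), -0.053 to 0.27 (Adamts7), -0.16 to 0.21 (Adamtsl3), -0.28 to 0.11 (Mmp10), -0.16 to 0.027 (Mmp17), -0.19 to 0.82 (Mmp19), -0.51 to 0.12 (Mmp23) and -0.26 to 0.47 (Mmp28). Among dim genes that kept their sign, the range was 0.13 to 1.18 (Mmp11), 0.17 to 1.15 (Mmp3), -1.05 to -0.23 (Adam6) and 0.03 to 0.83 (Adamts19), and normexp gave 0.10, 0.10, -0.11 and 0.04. None of these genes passed in any alternative run. For all of these changes, the cause was not tested.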
